A study of Homo sapiens with 6 samples.

Results

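The PAX6 and ELP4 domain is the interval of 500 kb on chromosome 11 (hg38, 31400000 to 31900000) that holds ELP4, PAX6 and the sequence around them. All accessible regions overlapping it were chosen by position, which gave 41 of the 108542 regions in the deposited table. The interval itself was picked with earlier results of these data known, and no accessibility value decided which region within it was a member.

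EndoC-βH3 cells were profiled by ATAC-seq, an assay of open chromatin in which a transposase inserts sequencing adapters where DNA is accessible. EndoC-βH3 is a human pancreatic beta cell line with the label genotype WT, whose immortalising transgenes can be removed by Cre recombinase. The senescent group (n = 3 libraries) had been treated for 3 weeks with 4-hydroxy tamoxifen, which activates Cre in these cells, and the non-senescent group (n = 3 libraries) is labelled as control. Each library was made from 100000 cells, and the labels do not say whether libraries of a group came from separate cultures. As a model it is a cultured beta-like line and not islet tissue.

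The signal used here is the authors' mean over all 6 libraries of read counts normalised for library size, 1 value per region. It holds both groups together, has no replicate error, and does not give the depth of a library, so no comparison between senescent and non-senescent cells is made here. In bulk libraries, more cells with an open region and more insertions per open region cannot be told apart. As regions differ in width, the mean signal is also given per kb of region where regions are compared.

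PAX6 is a paired-box and homeodomain transcription factor that is needed for islet cell identity, for insulin expression in beta cells and for development of the eye and brain. ELP4 encodes a subunit of Elongator, a complex that modifies wobble uridines of tRNA. The genes lie tail to tail with overlapping 3′ ends, PAX6 on the minus strand and ELP4 on the plus strand. PAX6 is transcribed from several promoters, including an internal promoter, and is known for long-range enhancers that lie within the introns of ELP4, so that deletions in ELP4 can disturb PAX6. A pancreatic enhancer has been described a short distance upstream of its outermost promoter in the mouse.

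In GENCODE 44, ELP4 spans 31509755 to 31790324 and PAX6 spans 31784779 to 31817961. IMMP1L, which encodes a subunit of the inner mitochondrial membrane peptidase, runs away from ELP4 on the minus strand from 31509645. The end of DNAJC24, which encodes an enzyme of diphthamide synthesis, and the long noncoding RNA genes PAUPAR and ENSG00000228061 also reach into the domain. A further gene model annotated as protein-coding, ENSG00000285283, starts inside PAX6 on the plus strand, at 31812391, and overlaps it. The annotation places 45 start sites of protein-coding transcripts of PAX6 and 11 of ELP4 in the domain.

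5 stretches of sequence are shown, from the shared ELP4 and IMMP1L promoter, the outermost PAX6 promoter and its upstream neighbour, and the strongest distal regions of the domain. The strongest PAX6 promoter region, which covers untranslated exons, is not shown. All were read from hg38, with matches to 11 short motifs in capitals (the letters are given with the motif results). The first is the interval of 109 bases between the outermost starts of IMMP1L and ELP4 (chr11:31509646-31509754, plus strand). The second holds the 250 bases before the outermost PAX6 start (chr11:31817962-31818211, minus strand), and is identical to the RefSeq promoter sequence (GRCh38.p14) before that start. The other 3 are the middle 300 bases of accessible regions on the plus strand, at chr11:31449049-31449348 in IMMP1L, chr11:31728737-31729036 in ELP4 and chr11:31820055-31820354 upstream of PAX6.
Interval between the IMMP1L and ELP4 starts: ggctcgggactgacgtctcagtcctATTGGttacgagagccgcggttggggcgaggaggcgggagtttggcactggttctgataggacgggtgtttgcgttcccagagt
Bases before the outermost PAX6 start: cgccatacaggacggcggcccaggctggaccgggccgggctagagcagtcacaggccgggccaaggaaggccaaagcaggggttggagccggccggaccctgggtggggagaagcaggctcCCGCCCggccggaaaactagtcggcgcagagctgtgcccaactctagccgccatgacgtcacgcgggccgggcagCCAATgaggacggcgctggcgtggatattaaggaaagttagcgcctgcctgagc
Middle of the region upstream of PAX6: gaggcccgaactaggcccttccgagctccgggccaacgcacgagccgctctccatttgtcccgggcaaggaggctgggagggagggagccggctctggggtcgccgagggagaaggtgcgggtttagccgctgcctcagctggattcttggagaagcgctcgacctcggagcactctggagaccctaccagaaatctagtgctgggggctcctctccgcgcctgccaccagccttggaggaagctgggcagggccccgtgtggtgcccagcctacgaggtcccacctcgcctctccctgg
Middle of the strongest distal region, in IMMP1L: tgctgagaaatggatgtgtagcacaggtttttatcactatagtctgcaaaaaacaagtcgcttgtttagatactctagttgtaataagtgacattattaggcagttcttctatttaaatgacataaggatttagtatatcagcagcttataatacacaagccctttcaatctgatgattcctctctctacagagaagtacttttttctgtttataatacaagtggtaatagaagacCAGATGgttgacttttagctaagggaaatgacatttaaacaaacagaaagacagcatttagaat
Middle of the strongest distal region inside ELP4: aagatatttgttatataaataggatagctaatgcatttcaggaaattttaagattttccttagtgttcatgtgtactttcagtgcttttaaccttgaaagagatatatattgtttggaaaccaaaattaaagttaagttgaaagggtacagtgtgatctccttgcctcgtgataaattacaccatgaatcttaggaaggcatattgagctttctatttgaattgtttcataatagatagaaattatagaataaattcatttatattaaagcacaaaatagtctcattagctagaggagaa

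The promoter stretches and the region upstream of PAX6 were rich in GC (60.6%, 68.4% and 67.7%) and held 9, 22 and 20 CpG dinucleotides. In contrast, the middles of both distal regions were AT-rich, with 33.0% GC in IMMP1L and 28.7% in ELP4 and 1 CpG each. An NFY motif stood between the IMMP1L and ELP4 starts, and an NFY motif and a GC box stood before the outermost PAX6 start. Of the 35116 starts in the RefSeq promoter table, 19.2% had an NFY motif in the 109 bases before the start. In the 250 bases before the start, 32.0% had an NFY motif and 42.6% a GC box.

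Regions that came within 2 kb of the start of any protein-coding transcript were taken as promoter regions, and 9 of the 41 regions met this definition. The other 32 were distal. Over the whole genome, 20094 regions were promoter regions and 88448 were distal. The 9 promoter regions held 65.1% of the summed mean signal of the domain, against 45.8% in the whole table. The sum over the whole table includes distal regions of up to 187656 in mean signal, against 1985 at most in the domain. How far such regions lower the promoter share of the table was not tested. Median mean signal was 1013 at promoter and 77.7 at distal regions of the domain, and per kb it was 975 and 156.

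**Figure D1:**
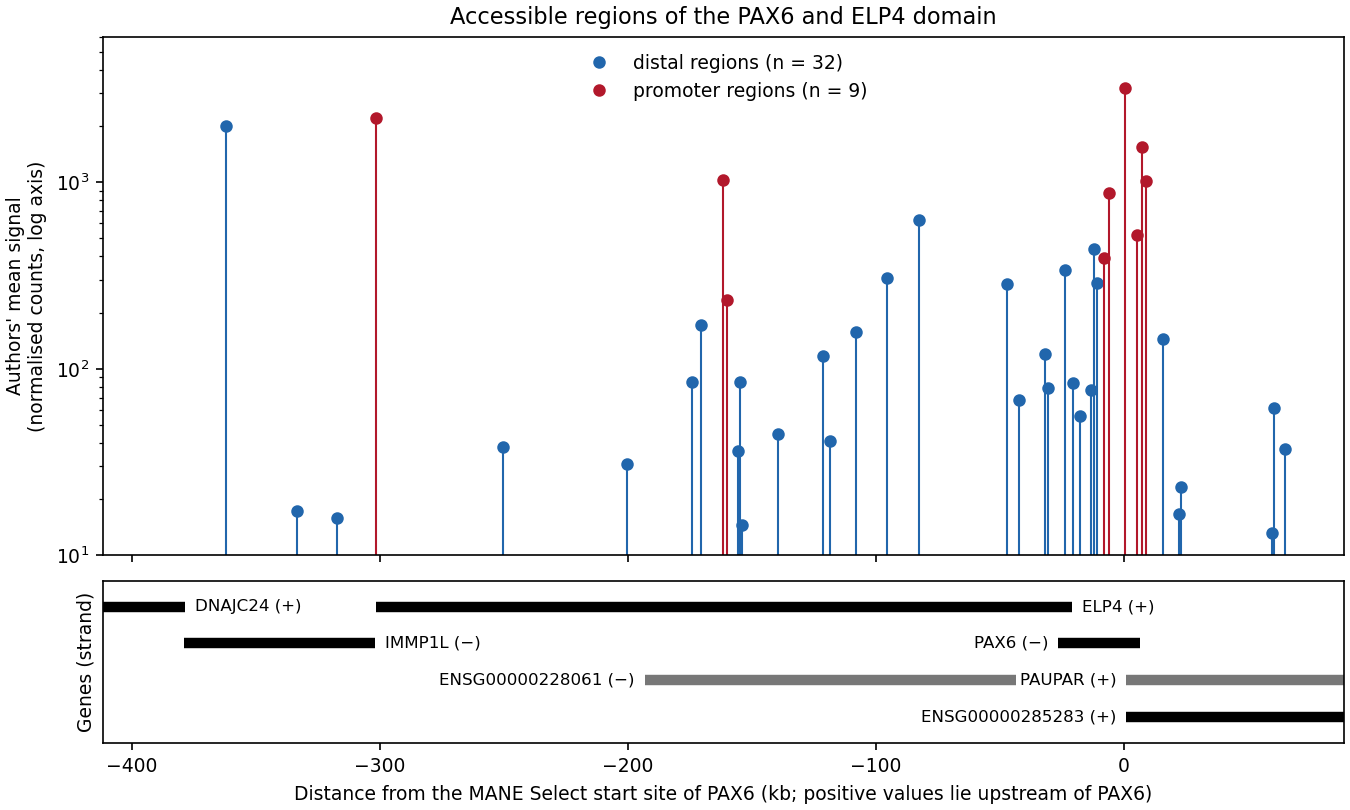
Authors' mean signal (log axis) of the 41 regions against the distance in kb of their middle from the MANE Select start of PAX6, with 9 promoter regions in red, 32 distal regions in blue and the annotated genes below (black for protein-coding, grey for noncoding). Most promoter signal lies around the PAX6 start and at the shared ELP4 and IMMP1L start. Further ELP4 promoter regions, at -162 and -160 kb, lie away from both. The strongest distal region, at -362 kb, stands beyond ELP4.

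PAX6 had 6 promoter regions within 18.1 kb, with no distal region between them. Together they held 44.6% of the signal of the domain. The strongest was also the widest of all 41 regions (31810961 to 31812974, 2014 bp). It covered exons 1 and 2 of the MANE Select transcript, the reference transcript agreed on by RefSeq and Ensembl, whose start lies at 31811322. The region held 15 start sites of protein-coding transcripts of PAX6 and 1 of ENSG00000285283. The start of PAUPAR (31812307, plus strand) lies within it as well, so its signal cannot be assigned to PAX6 alone. Its mean signal was 3184, or 1581 per kb, which placed it at percentile 92.4 of all promoter regions per kb. By itself it held 18.9% of the signal of the domain.

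Further upstream, the region over the outermost PAX6 starts (31817775 to 31819362) had a mean signal of 1548, or 975 per kb. Its neighbour 229 bp on (31819592 to 31820818) had 1013, or 826 per kb, and held no start site within it. This neighbour counts as a promoter region because it lies within 2 kb of the outermost start, and its middle stretch is the one shown above. A narrow region of 403 bp (31816350 to 31816752), which lies inside the PAX6 gene and holds a start of ENSG00000285283, had a mean signal of 517 but 1284 per kb. These 3 regions had between 61.4% and 63.3% GC.

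Inside PAX6, the region in intron 4 (31804217 to 31806146, 1930 bp), which holds 6 annotated start sites, had a mean signal of 872, or 452 per kb. The region over exon 5 and the end of intron 4 (31802713 to 31803599) had 392, or 442 per kb. Both internal promoter regions were thus below the median of all promoter regions per kb, at percentiles 45.7 and 45.0, whereas the other 4 PAX6 regions were above it, at percentiles 70.6 to 92.4. This order depends on division by width. By mean signal, the intron 4 region was at percentile 67.0, above the narrow region of 403 bp at 50.6. The exon 5 region was at 43.5 and the remaining PAX6 regions were at 72.3 to 98.5.

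ELP4 had 3 promoter regions, which held 20.5% of the signal of the domain. The strongest covered the divergent starts of ELP4 and IMMP1L (31509252 to 31510238) with 14 start sites of protein-coding transcripts, 8 of ELP4 and 6 of IMMP1L. Its mean signal was 2199, or 2228 per kb, the highest value per kb of the domain and percentile 97.4 of all promoter regions. As both genes start within it, its signal cannot be assigned to either.

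The other ELP4 promoter regions lie deep in the gene, near starts of shorter transcripts. The region in intron 8 (31649350 to 31650044) had a mean signal of 1032, or 1484 per kb, at percentile 90.9 of all promoter regions. In intron 9, the region from 31651137 to 31651588 had 235, or 520 per kb. Neither held a start site within it, and with 39.0% and 39.8% GC both were below the other 7 promoter regions, which had 53.4% to 63.3%. The region in intron 8 thus joined a signal of the size seen at PAX6 starts to a base composition of the size seen at distal regions.

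Distal regions ranged in mean signal from 13.3 to 1985, and 20 of the 32 were under 100. The strongest lay in intron 4 of IMMP1L (31448689 to 31449709), 362 kb from the PAX6 start and outside both PAX6 and ELP4. Its mean signal of 1985 was 3.16-fold that of the second distal region and 33.7% of all distal signal of the domain. Per kb it had 1944, at percentile 99.3 of the 88448 distal regions.

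The base composition of this region was unlike that of the promoters. It had 31.0% GC, the lowest of all 41 regions. Among the 3024 distal regions of the whole table with under 35% GC, the median signal was 126 per kb, percentile 95 was 497 per kb, and the region stood at percentile 99.9. It overlaps an exon of IMMP1L transcripts other than the MANE Select transcript, and no start site of a protein-coding transcript lies within 2 kb.

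The second strongest distal region lay in intron 9 of ELP4 (31728498 to 31729275), 82.4 kb downstream of the PAX6 start. It had a mean signal of 627, or 806 per kb, at percentile 93.5 of distal regions, and with 32.0% GC it was likewise AT-rich. Among distal regions with under 35% GC it stood at percentile 98.2. Thus both strongest distal regions were among the 3 distal regions of the domain with under 35% GC. The third of these, in intron 9 of ELP4 (31656141 to 31656894), had a mean signal of only 84.9.

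ELP4 intron 9 is 133 kb long and held 14 regions, 13 of them distal, from 14.6 to 627 in mean signal. Besides the region just named, the strongest distal regions in it were at 31715497 to 31716345 with a mean signal of 305, at 31764109 to 31764742 with 283 and at 31703065 to 31703527 with 157. Per kb these had 359, 446 and 339. All 3 were above the median of distal regions, at percentiles 78.2, 83.5 and 76.6. Intron 7 of ELP4 held a further region of this size (31640580 to 31641010), with a mean signal of 172, or 400 per kb.

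The 5′ part of ELP4 was the emptiest stretch of the domain. The largest gaps between neighbouring regions were 50.7 kb and 49.4 kb, and both lay there, on either side of a region in intron 3 with a mean signal of 38.0. By contrast the median gap in the domain was 4169 bp, and 9 of 40 gaps were under 1 kb.

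Between its internal promoters and its 3′ end, PAX6 held distal regions of intermediate signal. The strongest lay in intron 8 (31798693 to 31799816), with a mean signal of 435, or 387 per kb. Next to it, the region over exon 8 (31800158 to 31800833) had 287, or 424 per kb. At the other end, exon 10 of ELP4, which overlaps the 3′ end of PAX6, carried a region (31787056 to 31787836) with 339, or 434 per kb. Of the 6 distal regions in the PAX6 gene, 5 were above the median of all distal regions per kb, and their median percentile was 78.4.

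Upstream of PAX6 the distal regions were weak. The strongest of 6 lay 15.9 kb from the PAX6 start (31826802 to 31827675), with a mean signal of 144, or 165 per kb, and 60.8% GC. None of the 6 was above the median of all distal regions per kb, and their median percentile was 12.4. The weakest region of the domain was among them (31871045 to 31871290, mean signal 13.3). Next weakest were a region in intron 9 of ELP4 (31657255 to 31657466, 14.6) and a region in intron 1 of IMMP1L (31494112 to 31494432, 15.8). In the 17 distal regions of ELP4 before PAX6, the median percentile was 46.4 and 7 were above the median, a position between that of PAX6 and that of the upstream stretch. The 3 distal regions before ELP4 had a median percentile of 8.63, although the strongest distal region of the domain is 1 of them. These are descriptions of 1 mean per region, and their order has no replicate error.

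Set beside all regions of the same kind, the promoter regions of the domain had a higher median signal and its distal regions a median close to that of the table. Per kb, 7 of 9 promoter regions were above the median of all promoter regions (507) and 3 were in the top 10%. Their median percentile was 77.5. In distal regions, 13 of 32 were above the median of all distal regions (168), 2 were in the top 10% and 5 in the bottom 10%, and the median percentile was 46.5. Regions with a mean signal under 50 made up 37.5% of distal regions in the domain and 36.7% in the whole table. No test was made, since regions are not replicates.

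**Figure D2:**
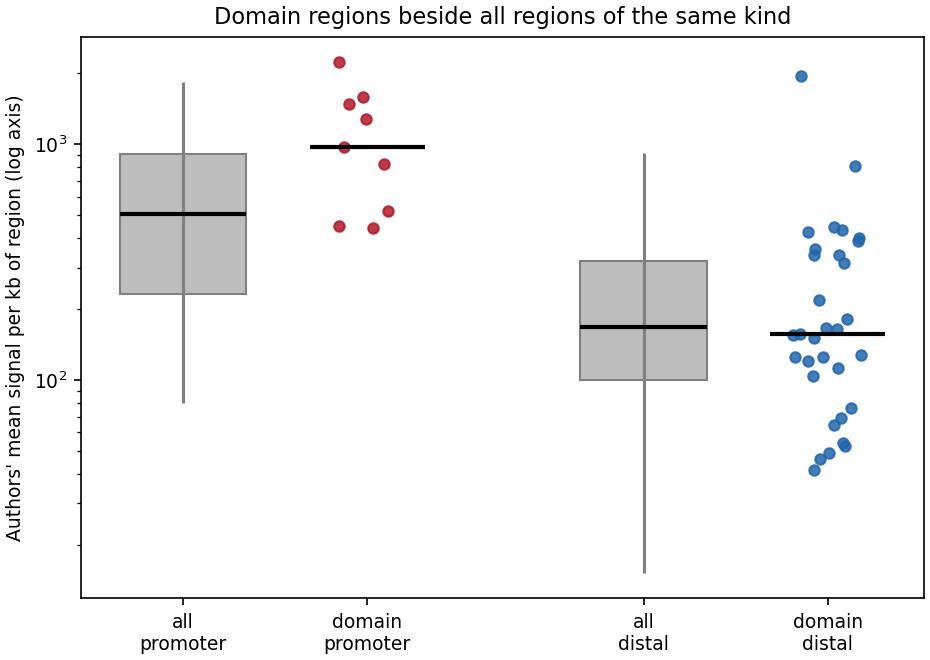
Authors' mean signal per kb of region (log axis) for all regions of the table (grey boxes from the 25th to the 75th percentile, black median, grey lines from the 5th to the 95th percentile) and for the domain's regions (points, with a black median). Domain promoter regions had a median of 975 against 507 in the table, and domain distal regions a median of 156 against 168.

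The domain held more regions than most windows of its size. Of 6164 windows of 500 kb tiled over the genome, the median window held 16 regions, and 270 windows (4.38%) held at least 41. The 500 kb on either side of the domain held 24 and 25 regions, none of them with a mean signal over 1000. The domain held 6 such regions (14.6%, against 7.85% of all regions), of which 5 were promoter regions. Summed mean signal was 16887 in the domain and 3966 and 3635 in its neighbours. The neighbours held 3 and 1 promoter regions, against 9 in the domain. In distal regions alone, summed mean signal was 5895 in the domain and 2358 and 2831 in the neighbours. Median distal signal was close, at 77.7 in the domain and 72.2 and 71.5 in the neighbours. Accessible regions covered 5.4% of the domain and 2.40% of the chromosomes in the table.

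**Figure D3:**
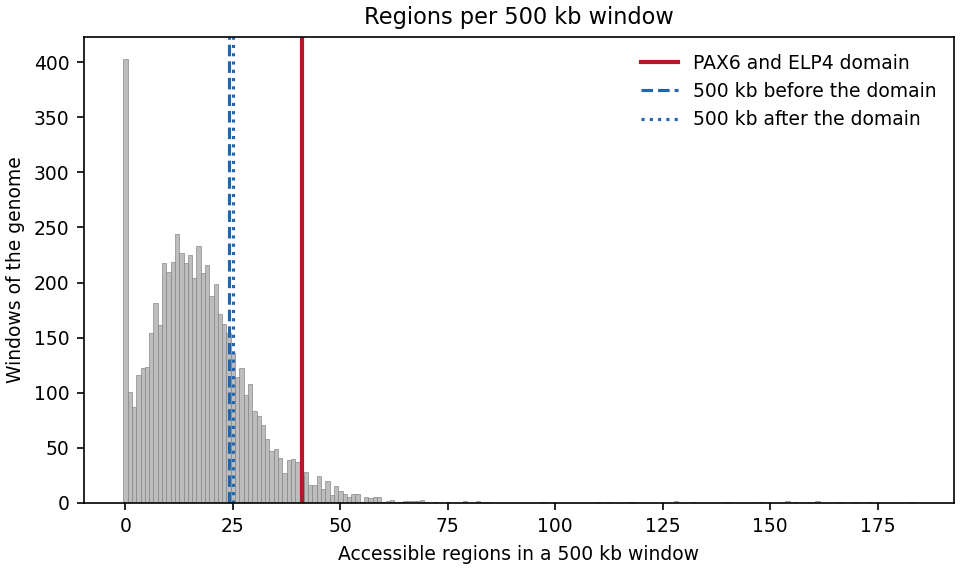
Number of windows of the genome by the number of accessible regions in each 500 kb window. The domain, with 41 regions, lies in the upper tail, and its neighbours before (24) and after (25) lie closer to the median of 16.

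Density was uneven within the domain, with each region assigned by its middle. The region over the outermost PAX6 starts, which overlaps the gene, thereby counts as upstream. The PAX6 gene held 30.1 regions per 100 kb, ELP4 before PAX6 held 6.96 per 100 kb, and the stretch before ELP4 held 2.78 per 100 kb. Of the summed signal, 37.0% fell within PAX6, 21.1% in ELP4 before PAX6, 16.9% upstream of PAX6 (mostly from the pair of promoter regions there), 13.0% at the ELP4 start and 12.0% before ELP4, the latter almost all from the region in IMMP1L.

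PAX6 was next set among 22 genes of transcription factors that act in beta cells or endocrine progenitors, in windows of 500 kb centred on each MANE Select start. Its window held 47 regions, of which 39 were distal, a number shared with FOXA2, a pioneer factor of endodermal genes, and exceeded by INSM1, a zinc-finger repressor of endocrine cells, with 48. By distal signal per kb, however, PAX6 had a median of 165 and ranked 16 of 22. INSM1 and FOXA2 ranked 1 and 2 in this measure, with 404 and 360. Within these windows PAX6 thus had many distal regions of modest signal, where INSM1 and FOXA2 had many strong regions. The PAX6 window is not the domain described above. It leaves out the strongest distal region of the domain, in IMMP1L, which lies 362 kb from the PAX6 start.

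The promoter region of highest mean signal was used to compare genes. PAX6, with 1581 per kb, ranked 10 of 22 by this value, close to NKX6-1 (1505) and INSM1 (1730). By mean signal without division by width (3184) the same region ranked 3. The highest was PAX4 (2651), and among the lowest was NEUROG3 (44.8), a factor of endocrine progenitors. By number of promoter regions PAX6 ranked first, with 6, and no other gene of the list had over 3. A gene with many annotated starts, such as PAX6, can gain more promoter regions under the definition used. The PAX6 region compared here also holds starts of ENSG00000285283 and PAUPAR, so its signal may not be that of PAX6 alone.

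**Figure D4:**
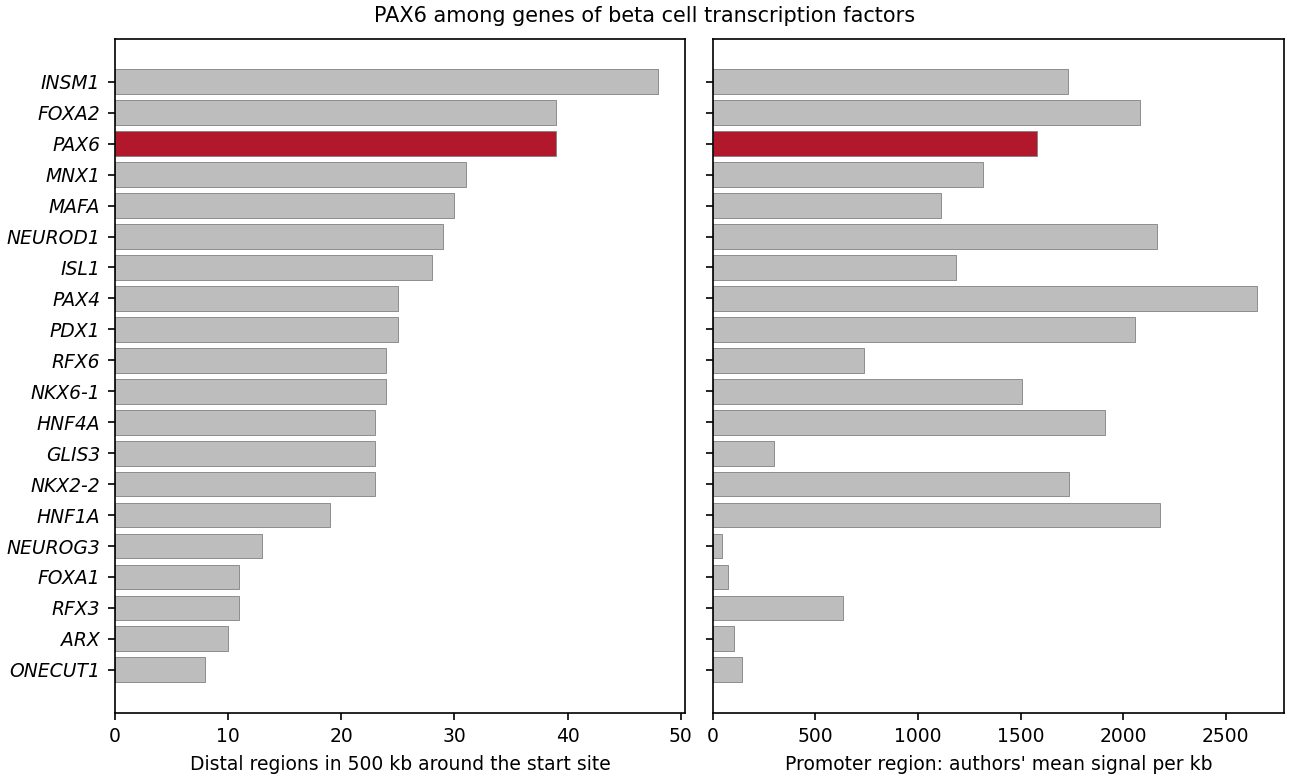
Distal regions in 500 kb around the MANE Select start (left) and the authors' mean signal per kb of the strongest promoter region (right) for 20 of the 22 transcription factor genes, with PAX6 in red. PAX6 had 39 distal regions, as many as FOXA2 and fewer than INSM1 (48), and had a promoter signal of 1581 per kb, between NKX6-1 (1505) and INSM1 (1730).

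Within the PAX family, paired-box factors that each direct other organs, 7 of 9 genes had a promoter region, and PAX6 was second to PAX4. PAX4, its relative in the endocrine pancreas, had 2651 per kb and PAX6 1581. The thyroid and kidney factor PAX8 had 541 and the B cell factor PAX5 791. PAX1, PAX2 and PAX3 had 220, 42.0 and 43.5, and PAX7 and PAX9 had no region within 2 kb of a start. By mean signal the range in the family was from 8.19 at PAX2 to 4435 at PAX4. The share of all genes with a promoter region was not counted.

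Among the genes of Elongator subunits, ELP4 had the highest promoter signal per kb. ELP3, which encodes the catalytic subunit, had 692, ELP2 had 923, ELP6 had 1420 and ELP5 had 1643, against 2228 at the region ELP4 shares with IMMP1L. ELP4 stood at percentile 97.4 of all promoter regions and ELP3 at percentile 63.1.

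The label of the cells was checked on marker genes in the same way. All 10 beta cell marker genes had a promoter region, with a median of 934 per kb, with 286 at G6PC2, 435 at IAPP, 1427 at INS and 2057 at PDX1. A region taken under the 2 kb rule need not cover a start of its gene. The INS region is 5533 bp wide (chromosome 11, 2153680 to 2159212). Whether it covers an INS start is not given here, so its signal cannot be read as that of the INS promoter. Alpha cell genes had regions at 5 of 5 genes (median 282 per kb), with 140 at GCG, 533 at TTR and 771 at IRX2. Delta cell genes had regions at 3 of 3 (median 548 per kb), with 171 at SST and 1896 at LEPR. Of the markers of other cells, regions were found for 3 of 4 acinar genes (median 118 per kb, 1298 at CPA1), 2 of 3 duct genes (443), 1 of 3 immune genes (921, CD68), 2 of 3 endothelial genes (122) and 2 of 3 fibroblast genes (95.8). The immune genes PTPRC and CD3E, the endothelial gene CDH5, PDGFRB, CFTR and PRSS1 had none. For comparison, the median of all promoter regions was 507 per kb, though the listed genes enter by their strongest region only. It was not counted how many of all genes have a promoter region, so the numbers of genes with a region do not by themselves identify the cells.

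Sequence features followed the division into promoter and distal regions. Median GC was 61.2% in promoter and 44.7% in distal regions of the domain, against 62.2% and 44.8% in the whole table. The median ratio of observed to expected CpG was 0.608 in promoter and 0.207 in distal regions. A pair of distal regions had a promoter-like composition, the one in intron 8 of PAX6 (60.8% GC, CpG ratio 0.781) and the strongest one upstream (60.8%, 0.708).

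**Figure D5:**
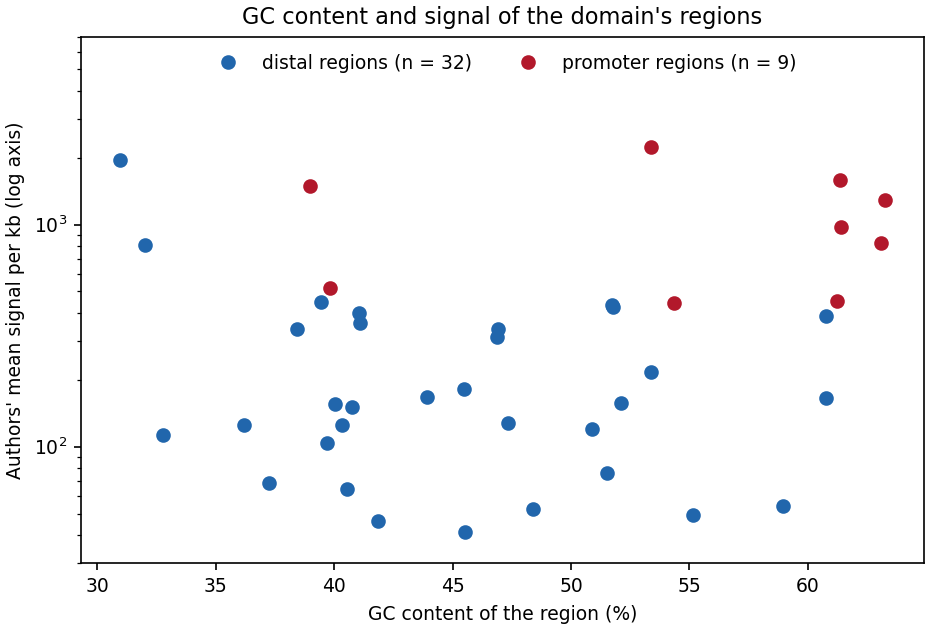
Authors' mean signal per kb (log axis) against GC content of the 41 regions, with promoter regions in red and distal regions in blue. The strongest distal regions, at 31.0% and 32.0% GC, stand at the AT-rich end, and 7 of 9 promoter regions have over 53% GC.

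11 motifs were sought on both strands in the 300 bp around the middle of each region. TAATTA, a core bound by homeodomain factors, was found in 8 of 41 regions (19.5%, 95% Wilson interval 10.2% to 34.0%), against 8.66% of all regions. In distal regions it was found in 6 of 32 (18.8%, 8.89% to 35.3%), against 10.1%, a share that lies within the interval. The 8 regions included one near the PAX6 start (31816350 to 31816752) and the region of mean signal 283 in ELP4 intron 9. Intervals cover counting error only and take regions as independent, which neighbouring regions may not be.

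For the other motifs the counts were as follows. CCAAT, bound by NFY, was found in 15 of 41 regions (36.6%) against 29.0% of all regions, CAGATG, an E-box bound by NEUROD1, in 6 (14.6%) against 28.0%, and GGGCGG, the GC box, in 6 (14.6%) against 17.3%. TGANTCA, bound by AP-1, was found in 5 (12.2%) against 9.86%, all of them distal. TGCTGAC, bound by MAF factors, was found in 2 (4.88%) against 6.64%, and TGTTTAC, bound by FOXA factors, in 2 (4.88%) against 8.26%. The RFX letters GTTGCCANG, the paired-domain letters TTCACGCNT, the CTCF core letters AGGGGGCGC or AGGTGGCAG and the E2F letters TTTCCCGC or TTTGGCGC were found in 0 of 41 regions, each with an upper Wilson bound of 8.57%, against 2.44%, 0.276%, 2.36% and 0.848% of all regions.

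The strongest distal region, in IMMP1L, held CAGATG as its sole match, shown in capitals above, and the strongest distal region in ELP4 held none of the 11 motifs. The same was true of the region upstream of PAX6. In all, 11 of 41 regions held no match in their middle 300 bp, 7 of them distal. A match is a match of letters and not a bound site, and its lack says only that these letters are missing from the window.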

How the data were processed

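ATAC-seq libraries of EndoC-βH3 cells, 3 senescent and 3 non-senescent, were grouped by the labels. According to the methods of the study and the processing notes, the authors used Trim Galore for trimming and Bowtie2 for alignment to hg38. Duplicates and mitochondrial reads were discarded, read positions were corrected for the transposase offset, MACS2 was used to find peaks, and reads were counted over the merged peaks. Tool versions are not given in the sources used here. The deposited mean signal was made by the authors from counts scaled by size factors and averaged across all 6 libraries. It hides the spread within and between groups, and wide regions gather more reads. The table has 0 columns of single libraries, so the depth of each library is not known here, and the study states a range only. Its 5 further columns hold the authors' comparison of the groups (fold change, its error, test statistic, p-values), which were not used. The planned test of the groups needed counts per library and was not run.

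Region starts were taken as counted from 0 and printed counted from 1. 0 regions overlapped each other and 0 lay past a chromosome end. Start sites and gene models were taken from GENCODE 44, and sequence from the hg38 reference. Of the 7 annotated genes reaching into the domain, 4 were matched by symbol in the RefSeq promoter table. The members, gene lists and named regions were chosen with earlier results of these data known. Named regions were all promoter regions, the 10 distal regions of highest and the 3 of lowest mean signal, and the widest. The region in intron 3 of ELP4 and the third AT-rich region were named after their values were seen. Listed genes took the promoter region of highest mean signal. Lists were beta cell transcription factors, the PAX family, Elongator subunits, and markers of beta, alpha, delta, acinar, duct, immune, endothelial and fibroblast cells. The values of some listed genes are not reported here. Percentiles are over all regions of the same kind. Python 3.11.15, numpy 2.4.6, pandas 2.3.3, scipy 1.17.1 and pysam 0.24.0 were used, and the steps were tested on simulated data. Alternatives were promoter windows of 1 and 0.5 kb, start sites of all transcripts, signal without division by width, a minimum mean signal of 50, shifted windows, windows with a region, distal regions alone and motifs in whole regions. Start sites of MANE Select transcripts alone were added after the data had been seen.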

Additional observations from a re-analysis of the deposited data

How the results depend on the processing

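The number of promoter regions rested on the annotation. Counting start sites of all transcripts gave 16 promoter regions instead of 9, and MANE Select starts alone gave 2, with 31.9% of the domain's signal instead of 65.1% and a ratio of median promoter to distal signal per kb of 10.5 instead of 6.24. Without division by width this ratio was 13.0, with start sites of all transcripts it fell to 3.49, and with a minimum mean signal of 50 to 2.99. With regions of a mean signal of at least 50, the share of windows with at least as many regions as the domain was 5.95% instead of 4.38%. In all, 15 alternatives for these results and all 11 for motif shares of distal regions stayed within the spread set for them (1.5 times for counts, the 95% interval for the rest). The values 3.49 and 2.99 are among the 15, although they lie far below 6.24. With 1 mean per region, the interval of this ratio can rest only on the spread between regions, which are not replicates. The ratio is therefore not shown to be stable. Over all 41 regions, a search of whole regions, added after the data had been seen, moved the share with CAGATG from 14.6% to 36.6% and that with CCAAT from 36.6% to 53.7%, as wider stretches were searched, while the shares of the other 9 motifs stayed within their intervals. The shares of the whole table in such a search are not given here. No paired analysis was possible because only 1 mean over all libraries is given per region. For the same reason no library was left out and no other normalisation was tried. Without values per library, no error could be set on a region's mean.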
